A study of Mus musculus with 24 samples.

Results

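Loss of the transcription factor C/EBPα was measured in mouse subcutaneous fat under 3 conditions, and the results here concern the knockout effect averaged over them. All 18 arrays of the C/EBPα line were used, of 24 in the series: 9 knockout and 9 control arrays, in 3 sets of 3 against 3. Mice called Adn-C/EBPα-/- and their littermate controls, all C57BL/6J, ate a diet with doxycycline: chow for 3 days in the first set, a high fat diet (HFD) for 3 days in the second and HFD for 1 month in the last. They were 10 weeks old in both 3 day sets and 14 weeks old in the 1 month set, and doxycycline was part of every diet, also of the controls' as far as the design text tells. The labels give the knockout genotype for the controls too, do not say which alleles the littermates carried, and do not say that the replicates were separate animals, so p-values measure only the spread between these arrays. Adn is commonly short for the adiponectin promoter, which in mouse lines of this kind restricts a doxycycline-induced deletion to adipocytes, so the other cells of the tissue keep the gene. The arrays are Illumina BeadChips, which read the brightness of labelled cRNA on each probe, and 15187 genes were tested with 1 probe each. In each gene a single knockout effect was fitted with the set as a blocking factor, so differences of the effect among the sets count as residual spread. A gene was called at a Benjamini-Hochberg adjusted p under 0.05 in limma, and its direction was followed in each of the 3 sets.

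C/EBPα is a leucine zipper protein that binds DNA as a dimer and, together with PPARγ, drives the late steps of fat cell formation. In the formed adipocyte it is known for holding up genes of insulin response, lipid handling and secreted proteins, resistin, leptin and haptoglobin among them. By its title the study asks about mature adipocytes, after the cell has formed.

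Cebpa itself was the check of the labels. Its background-corrected signal on chow was 438, 486 and 544 in the controls and 231, 261 and 218 in the knockouts. After 3 days on HFD it was 493, 682 and 515 against 113, 136 and 111, and after 1 month 897, 739 and 873 against 51.4, 78.9 and 55.0. Every knockout array lay below every control of its set, on all 18 arrays above background. The averaged log2 fold change was -2.18 ± 0.25 (SE; limma adjusted p = 5.88e-05, 9 against 9), and 48.4%, 21.3% and 7.38% of the control signal was left on chow, at 3 days and at 1 month of HFD. In the controls the 17 tested adipocyte markers had a summed signal of 181000 to 192000 on chow. It was 129000 to 132000 at 3 days and 165000 to 179000 at 1 month of HFD. With no other tissue beside it, this sum does not check the tissue label. The sets were normalized separately by the authors, so levels are compared only within a set.

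On average 1657 genes were called, 10.9% of those tested: 850 rose (5.60%) and 807 fell (5.31%). Most changes were small, with a median absolute log2 fold change of 0.35 among called genes. Only 8 genes rose and 46 fell by at least 2-fold on average, and 2 in each direction by at least 4-fold. The 4 were Cyp2f2 and Angpt4, which rose, and Cebpa and Slc13a4, which fell. Among called genes 1567 had the same direction in all 3 sets, 94.6% against 35.9% of all genes tested, of which 822 rose and 745 fell. That share is partly set by the choice, because the average is made of the 3 sets. A stricter description asked that all 3 knockout arrays lie on the same side of all 3 controls in every set: 316 called genes met it, 150 higher and 166 lower, and so did 323 of all tested (2.13%; 1.01% higher and 1.11% lower).

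Among these fully separated genes, the largest averaged falls after Cebpa were in a sulfate transporter, an adipokine, a secreted lipocalin, a hormone receptor and a linker histone. Full separation was the condition for being picked, here and for the rises below, so it is not a result for each gene. The sodium-sulfate cotransporter gene Slc13a4 gave 278, 319 and 506 in chow controls and 170, 232 and 200 in chow knockouts. At 3 days of HFD it gave 218, 269 and 193 against 51.2, 91.9 and 46.3, and at 1 month 389, 485 and 475 against 12.6, 17 and 25.4. The separation was narrow on chow, where the lowest control was 278 and the highest knockout 232, and wide on HFD. Averaged over the sets the change was -2.07 ± 0.32 (limma adjusted p = 0.000536), with set values of -0.79, -1.65 and -3.77 in the order chow, HFD 3 days, HFD 1 month, which is used throughout.

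Retn encodes resistin, a hormone secreted by mouse adipocytes. Its signal was 82.0, 76.2 and 125 in controls against 47.9, 47.9 and 29.7 in knockouts on chow, then 62.6, 71.5 and 59.6 against 9.29, 26.3 and 12, then 143, 118 and 125 against 4.87, 3.72 and 4.18. All 3 knockouts at 1 month were not above background, so the fall there was at least 6.48-fold on the log2 scale with its offset. Counted at that bound the averaged fall was at least 3.17-fold, and the fitted averaged change was -1.71 ± 0.22 (limma adjusted p = 0.000134). The knockout arrays stood below the controls in every set.

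Mup2 belongs to the major urinary proteins, small pheromone carriers of the lipocalin family. Its signal was 1800, 1880 and 2910 against 696, 451 and 702 on chow, 3490, 3420 and 2130 against 1070, 1230 and 1120 at 3 days of HFD, and 48.1, 73.1 and 109 against 43.5, 12.1 and 24.3 at 1 month. The chow gap was the widest on the log2 scale, unlike Slc13a4 and Retn, and at 1 month the gap between the lowest control and the highest knockout was under 5 units of signal. Over the sets it averaged -1.43 ± 0.17 (limma adjusted p = 7.93e-05). This gene is uncertain: its family holds near-identical copies that a probe may not tell apart, and both other probes read -0.90 and -0.98 on average with 0.01 and -0.04 at 1 month.

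Tshr encodes the thyrotropin receptor, which in fat signals to lipolysis. Its signal was low: 81.7, 81.5 and 147 against 48.1, 54.5 and 25.0, then 34.1, 70.8 and 40.1 against 13.3, 18.1 and 4.54, then 65.3, 52.7 and 57.2 against 3.89, 3.83 and 8.35. Knockout and control arrays did not overlap in any set, although only 6 of 9 knockout arrays were above background. The averaged change was -1.34 ± 0.16 (limma adjusted p = 7.72e-05), and its other probe read -1.04, with -0.15 on chow.

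H1f10, a linker histone that packs DNA between nucleosomes, gave 216, 194 and 304 against 170, 132 and 105 on chow. It gave 106, 126 and 126 against 46.7, 51.5 and 40.5 at 3 days of HFD and 238, 228 and 247 against 41.7, 50.6 and 34.0 at 1 month. The averaged change was -1.33 ± 0.16 (limma adjusted p = 9.79e-05), and a second probe of the gene read -1.36. The arrays were again separated in every set, by the least on chow.

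The next 6 falls reached -1.33 to -1.15. Hp (haptoglobin, a hemoglobin scavenger of plasma) changed by -1.33 ± 0.18, and its 3 probes read -1.32 to -1.41. Gnai1, an inhibitory G protein subunit that restrains adenylate cyclase, changed by -1.30 ± 0.19, and Pnpla3, a lipid droplet acylhydrolase, by -1.19 ± 0.15. Pla2g2e, a secreted phospholipase, changed by -1.19 ± 0.18. Ffar4, the receptor of long chain fatty acids also called GPR120, changed by -1.17 ± 0.13: its chow controls gave 862, 902 and 968 against 531, 535 and 625, and its 1 month controls 769, 754 and 732 against 183, 199 and 209. Nudt6, a nudix hydrolase, changed by -1.15 ± 0.10 and had the smallest adjusted p of these 24 genes (7.02e-06, limma), with 813, 935 and 981 against 314, 402 and 242 on chow. Its chow effect was the largest of its 3 sets (-1.49, -0.88 and -1.08), whereas chow gave the smallest effect in Slc13a4 and Retn.

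**Figure D1:**
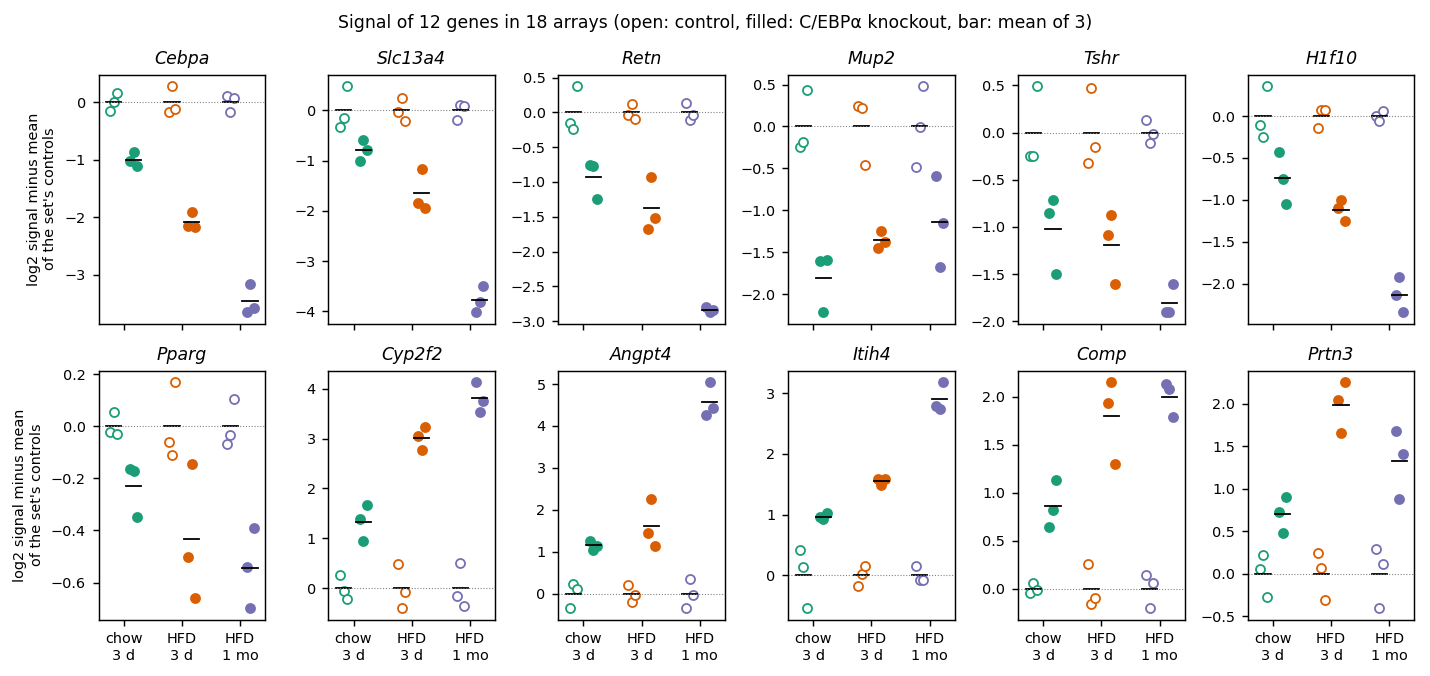
Log2 signal of 12 genes in 18 arrays, each minus the mean of its set's 3 controls (vertical axis), with the 3 sets on the horizontal axis; open points are controls, filled points knockouts and bars means of 3. The knockout points of each gene lie on the same side of the controls in every set, which the rule that picked the genes fixes for all but Cebpa and Pparg. For Cebpa the set means went from -0.998 on chow to -3.47 at 1 month of HFD.

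The largest averaged rise was in Cyp2f2, a cytochrome P450 best known from the airway. Its signal was 3670, 2940 and 2620 in chow controls and 8030, 5900 and 9710 in chow knockouts. On HFD it was 632, 334 and 424 against 3810, 3170 and 4360 at 3 days and 283, 458 and 244 against 5840, 3840 and 4470 at 1 month. The lowest knockout exceeded the highest control in every set, and the averaged change was 2.72 ± 0.28 (6.59-fold; limma adjusted p = 2.97e-05). The set values were 1.34, 3.02 and 3.81.

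Angpt4 encodes a secreted angiopoietin, a ligand of the endothelial receptor Tie2. It was dim in controls, with 21.4, 40 and 35.1 on chow, 14.0, 6.73 and 9.65 at 3 days and 3.11, 14.8 and 7.71 at 1 month of HFD. The knockouts gave 97.6, 82.7 and 89.0, then 55.2, 109 and 40.8, then 444, 781 and 502. Averaged over the sets the change was 2.45 ± 0.38 (5.46-fold; limma adjusted p = 0.000599). The arrays were separated in all sets, and 8 of 9 control arrays were above background.

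Itih4 encodes a plasma protein that is made mainly in liver. Its controls gave 286, 231 and 139 on chow, 63.7, 75.6 and 84.4 at 3 days and 48.8, 39.1 and 38.7 at 1 month of HFD. Its knockouts gave 423, 411 and 443, then 253, 236 and 253, then 383, 371 and 512. All 3 probes rose, by 1.80 ± 0.21 (limma adjusted p = 7.93e-05), 1.85 and 1.52 on average, and the highest control stayed below the lowest knockout in each set.

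Comp, a cartilage matrix protein that binds collagen, gave 58.9, 64.8 and 60.8 against 105, 121 and 153 on chow, 23.9, 13.8 and 15.1 against 112, 132 and 66.2 at 3 days and 56.0, 40.7 and 52.2 against 271, 260 and 210 at 1 month of HFD. On average Comp changed by 1.56 ± 0.15 (limma adjusted p = 2.97e-05), and the groups were apart in all sets. Its other probe read 0.33 and did not pass (limma adjusted p = 0.112).

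Prtn3, a serine protease of neutrophil granules, gave 1240, 1400 and 987 against 2000, 1680 and 2250 on chow. It gave 284, 249 and 189 against 1030, 783 and 1190 at 3 days and 233, 138 and 205 against 638, 359 and 524 at 1 month. On average Prtn3 changed by 1.34 ± 0.17 (limma adjusted p = 0.000153), largest at 3 days of HFD (1.98). Other neutrophil markers were not called higher with it: Elane averaged -0.12 (limma adjusted p = 0.518) and Mpo -0.17 (0.282), while S100a8 fell by 1.13 (0.0164). The S100a8 arrays overlapped at 3 days of HFD, with 827, 137 and 104 in controls against 91.8, 102 and 235 in knockouts.

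The other 7 of the 12 largest rises averaged 0.89 to 1.08. Cebpg, a C/EBP family member that lacks a strong activation domain and pairs with the others, rose by 1.08 ± 0.13, from 4330, 5100 and 3750 to 6350, 6210 and 6240 on chow and from 1830, 2720 and 1870 to 5850, 4960 and 5500 at 1 month. Its other probes read 0.53 (limma adjusted p = 0.000559) and 0.23 (0.220), the latter with -0.15 at 1 month. Chst8, a sulfotransferase of N-acetylgalactosamine, rose by 1.01 ± 0.14, and Kcne4, an accessory subunit of potassium channels, by 0.97 ± 0.13. The matrix genes Adamtsl2, a fibrillin-binding protein, and Thbs2, thrombospondin 2, rose by 1.00 ± 0.21 and 0.98 ± 0.14. Adamtsl2 was dim and barely separated on chow, where the highest control was 21.1 and the lowest knockout 21.8. Its knockouts at 3 days of HFD read 17, 81.4 and 19.4, and its call was lost without the 1 month set. Cpne9, a calcium-dependent lipid-binding copine, rose by 1.00 ± 0.12 with only 5 of 9 controls above background, so the size is compressed. Sox9, a transcription factor of cartilage, rose by 0.89 ± 0.14, though its other probe read 0.12 (limma adjusted p = 0.511).

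**Figure D2:**
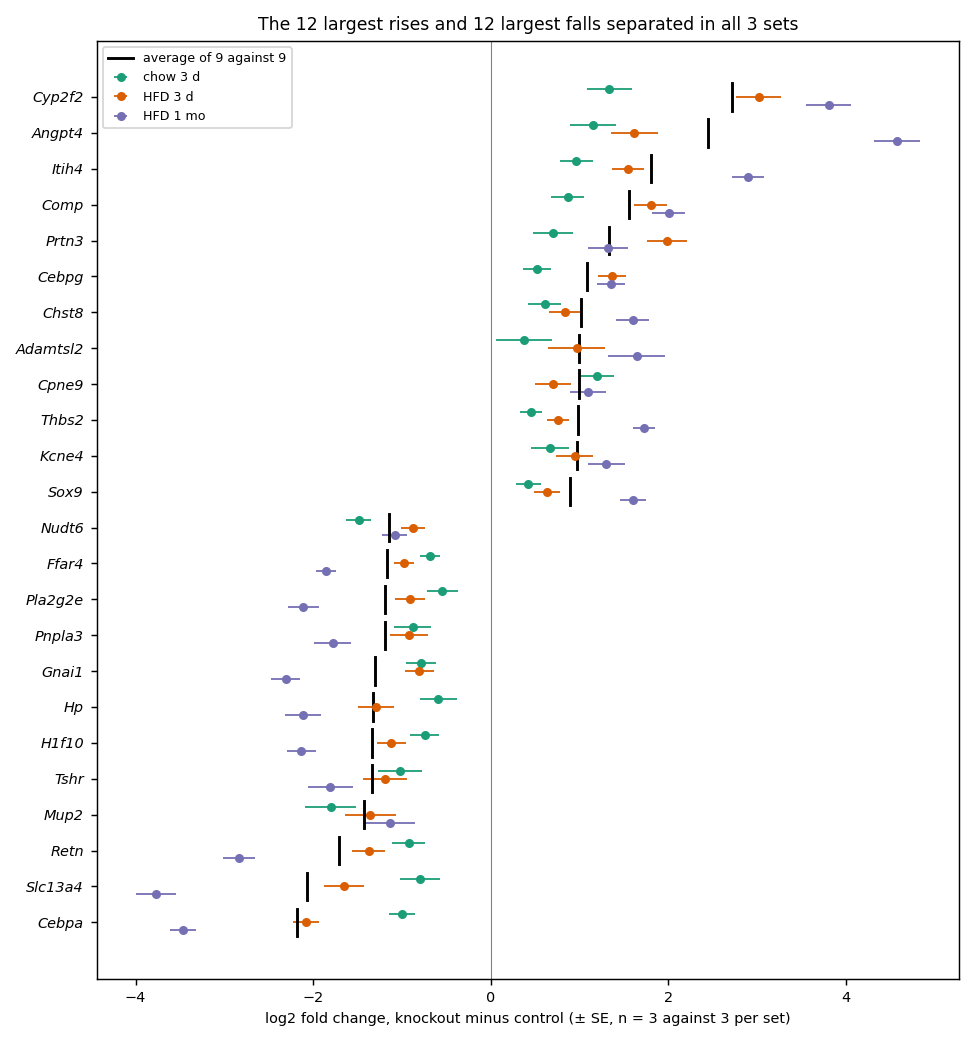
Log2 fold change of knockout minus control (horizontal axis) for the 12 largest rises and 12 largest falls among called genes separated in all 3 sets; points are the 3 sets with SE (3 against 3) and black bars the average of 9 against 9. In 19 of the 24 genes the effect was largest at 1 month of HFD, against 44.2% of all genes tested, and in 21 it was smallest on chow. A large effect in any 1 set raises the average by which these genes were picked.

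The sets differed in the size of the effect. Among the 1567 called genes with the same direction everywhere, the median absolute log2 fold change was 0.21 on chow, 0.29 at 3 days and 0.52 at 1 month of HFD, against 0.13, 0.11 and 0.15 over all genes. The effect was largest at 1 month in 1207 of them, against 44.2% of all genes tested, but a large effect in any 1 set raises the average that chose them. A test of the difference among the sets (limma F test on the interaction) called 523 genes (3.44%), 270 of them among the 1657. Of the 24 genes above 14 passed it, among them Cebpa (adjusted p = 2.46e-05), Angpt4 (0.000101), Slc13a4 (0.000146) and Retn (0.00111), and 10 did not, among them Nudt6 (0.187) and Mup2 (0.602). Both 3 day sets share duration and age and differ in diet, and both HFD sets share diet and differ in duration and age. Each set was normalized separately by the authors, so normalization cannot be told apart from diet in the first pair or from duration and age in the second, and duration cannot be told apart from age. Time on doxycycline ran with duration. The Cebpa signal left also differed, at 48.4%, 21.3% and 7.38% of control on chow, at 3 days and at 1 month of HFD. Its part in the size of the effects was not tested.

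Tested alone, the sets called 101 genes on chow (0.665%), 253 at 3 days of HFD (1.67%) and 2346 at 1 month (15.4%). The average held 48 of the 101, 239 of the 253 and 1238 of the 2346. Another 1172 genes were called in at least 1 set and not on average. Of the 1657, 1036 were called in 1 set, 213 in 2 and 21 in all 3. The 21 include 8 that rose: Cyp2f2, Itih4, Comp, the cell cycle genes Cdkn3 (0.64 ± 0.07) and Cdc6 (0.59 ± 0.06), Mpp1, Ralgds (0.53 ± 0.07) and Ssbp2. The 13 that fell were Cebpa, Retn, Mup2, H1f10, Gnai1, Ffar4, Nudt6, Ppp1r1a (an inhibitor of protein phosphatase 1, -1.10 ± 0.12), Tmem120a (-1.05 ± 0.12), the kinase Jak1 (-0.94 ± 0.10), the translation repressor Eif4ebp1 (-0.93 ± 0.11), 1700029I15Rik (-0.80 ± 0.08) and Klb.

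Across all 15187 genes, Pearson's r between the set effects was 0.57 for the HFD sets, 0.21 for chow and 1 month, and 0.17 for chow and 3 days of HFD. These are descriptions across genes, which are not independent replicates; the sets share no arrays. Genes called without a given set were then read in that set. Of 178 genes called without the 1 month set, 96.6% had the same direction there (61% of all genes) and 81.5% were fully separated in it (24.7% of all genes). Of 765 called without the 3 day HFD set, 92.2% had the same direction in it (63.2%) and 50.2% were separated (14.2%). Of 2126 called without chow, 69.9% had the same direction on chow (54.6%) and 21.7% were separated (10.9%), with a median of 0.10 for rises and -0.09 for falls. Of the 3 sets left out in turn, chow gave the lowest shares of shared direction and of separation. The gene lists behind these shares differ in size, and the median SD within groups was 0.168 on chow against 0.139 in each HFD set. The part of either in the shares was not tested.

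**Figure D3:**
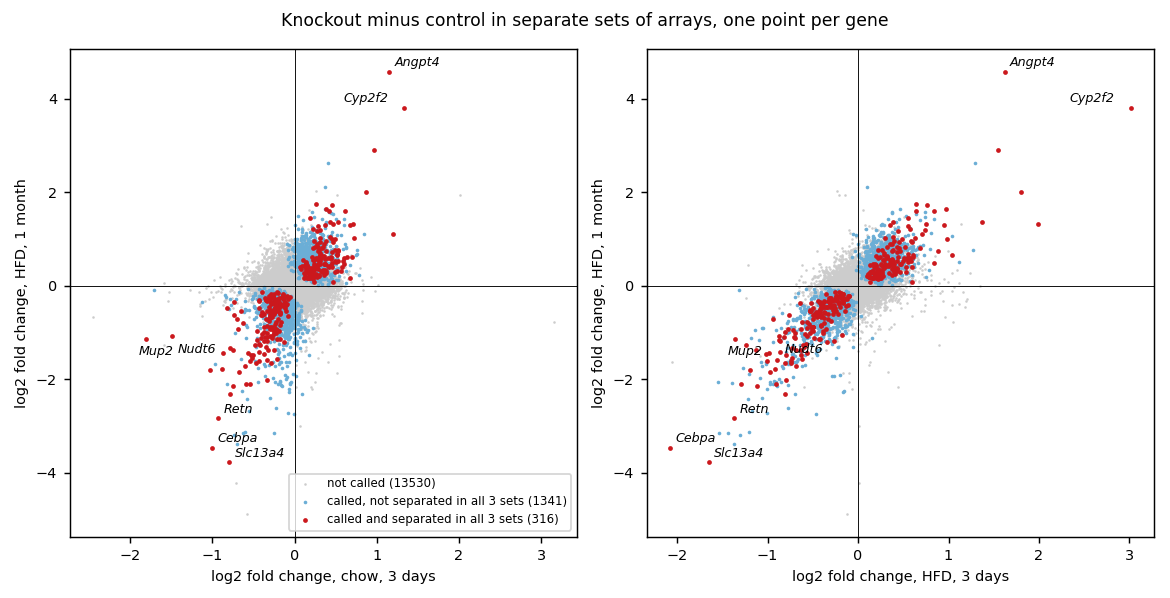
Log2 fold change at 1 month of HFD (vertical axes) against chow (left) and 3 days of HFD (right), with a point per gene: 13530 not called, 1341 called but not separated in all 3 sets, and 316 called and separated. The separated genes fill only the lower left and upper right of each panel, which their definition fixes, and most lie steeper than equal effects against chow.

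A smaller group changed by nearly the same amount everywhere. Of 127 fully separated genes with an averaged change of at least 0.5, 14 had a largest set effect under 1.5 times the smallest. Ssbp2, a single-stranded DNA binding cofactor, read 375, 333 and 380 against 481, 515 and 559 on chow, 221, 229 and 223 against 320, 370 and 286 at 3 days, and 351, 312 and 295 against 483, 426 and 487 at 1 month. Its rise was 0.51 ± 0.06 on average and 0.50, 0.50 and 0.52 by set, and a second probe rose by 0.33. Rspo3, a secreted enhancer of Wnt signals, rose by 0.59 ± 0.08, and Mpp1, a membrane scaffold protein, by 0.56 ± 0.06.

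Klb encodes β-Klotho, the co-receptor through which FGF21 acts on fat. It read 498, 549 and 535 against 348, 300 and 310 on chow, 221, 193 and 199 against 116, 98.3 and 82.7 at 3 days, and 160, 151 and 143 against 116, 71.3 and 76.3 at 1 month of HFD. The fall was 0.70, 0.94 and 0.71 by set, and the averaged change was -0.79 ± 0.08 (limma adjusted p = 2.97e-05). Its ligand gene Fgf21 fell by 0.60 ± 0.11 (limma adjusted p = 0.00243). Mup3 (-0.71 ± 0.11) and Tacc1, a centrosomal protein (-0.57 ± 0.08), were the other even falls by the rule, but 3 further Tacc1 probes read -0.10 to 0.10 and Mup3 shares its sequence family with Mup2.

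Averaging also called genes that no single set did. There were 387, 216 higher and 171 lower, all with the same direction in the 3 sets, against 35.9% of all genes tested. The shared direction is largely fixed by the choice, since the average passes while no set does alone. Their median absolute change was 0.24, and 52 were fully separated, against 2.13% of all genes tested. By smallest adjusted p the higher ones were Sema6d (a semaphorin guidance protein, 0.42 ± 0.08), Morn2 (0.47 ± 0.09), Casp12 (a caspase of the endoplasmic reticulum, 0.41 ± 0.08), Cd276 (the immune ligand B7-H3, 0.49 ± 0.09) and Ppih (a spliceosomal cyclophilin, 0.34 ± 0.07). The lower ones were Dtnbp1 (dysbindin, -0.30 ± 0.05), Eif4e (the cap-binding translation factor, -0.31 ± 0.06), Ipo9 (a nuclear import receptor, -0.29 ± 0.06), Pitpnb (a phosphatidylinositol transfer protein, -0.25 ± 0.05) and Ube2e2 (a ubiquitin-conjugating enzyme, -0.27 ± 0.05). Dtnbp1 shows the scale of such changes, with 5910, 6840 and 7040 against 5640, 4960 and 5300 on chow and 3140, 3080 and 3100 against 2290, 2880 and 2590 at 1 month. The arrays did not overlap in any set, yet the smallest adjusted p in a set was 0.0678. Other probes of Sema6d, Casp12, Ppih and Ipo9 did not pass the test, and Eif4e was above background in 6 of 9 knockouts.

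**Figure D4:**
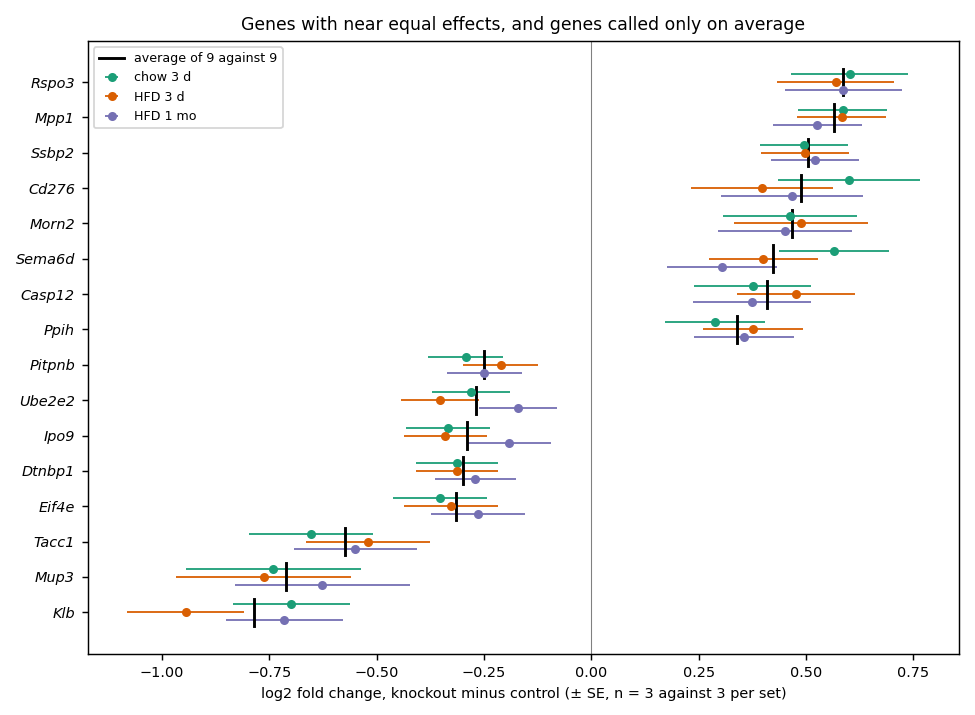
Log2 fold change of knockout minus control (horizontal axis) by set with SE (points, 3 against 3) and on average (black bars) for the 6 genes with the most even effects and the 10 genes with the smallest adjusted p among those called only on average. The 3 points of each gene lie on the same side of 0, which the rules that picked the genes fix, from Klb at -0.79 to Rspo3 at 0.59 on average.

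Only 90 called genes had a set with the opposite sign, and in 82 that set was chow. The largest averaged changes among them were falls: Apcdd1, an inhibitor of Wnt signals (0.09, -0.69 and -2.32 by set), Tenm4, a teneurin adhesion protein (0.02, -0.76 and -1.59), Timp4, an inhibitor of matrix metalloproteases (0.02, -0.27 and -1.93), and Nos3, endothelial nitric oxide synthase (0.01, -0.63 and -1.44). The chow values of these probes were within 0.10 of 0, with SE of 0.12 to 0.18, so a difference on chow was not detectable with them. Other probes of the same genes read both ways on chow. Those of Apcdd1 read -0.300 and 0.068, those of Tenm4 -0.181 to -0.025, and those of Nos3 -0.057 to 0.038. Timp4 lost its call without any of 11 of the 18 arrays, taken out singly (highest limma adjusted p = 0.0923).

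Gene lists were read by how many members passed on average, against 5.60% higher and 5.31% lower over all genes. The lists were chosen with earlier results of these data known. Of the lipid synthesis lists, 11 of 23 genes of fatty acid and triglyceride synthesis fell and 0 rose, with a list median of -0.28 against 0.007 over all genes. Mogat2, which makes diacylglycerol, fell by 1.00 ± 0.15, Acss2, which activates acetate, by 0.80 ± 0.13, and Dgat1, which makes triglyceride, by 0.63 ± 0.10. Acly, Scd1 and Gpam did not pass (limma adjusted p = 0.448, 0.341 and 0.304). A second probe of Mogat2 read -0.15 and did not pass either (0.524), and a second probe of Acss2 read -0.73. Of 17 cholesterol synthesis genes 11 fell and 0 rose, with a median of -0.41 (-0.15, -0.41 and -0.65 by set). Sc5d, Pmvk, Lss and Hsd17b7, enzymes from mevalonate to the last sterol steps, changed by -0.69, -0.66, -0.53 and -0.42. A second probe of Lss read -0.16 (0.239). Without the 1 month set 4 of the 23 and 0 of the 17 passed.

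Lipid droplet and lipolysis genes fell in 7 of 18 and rose in 1. Bscl2 (seipin, which builds droplets) fell by 0.60 ± 0.11, Abhd5, the activator of the lipase ATGL, by 0.56 ± 0.10, Plin1, the droplet coat protein of adipocytes, by 0.45 ± 0.08, and Mgll, which splits monoglycerides, by 0.45 ± 0.10. The exception was Cidea, a droplet protein of brown fat, which rose by 0.52 ± 0.12. Without the 1 month set 0 of the 18 passed. Fatty acid oxidation did not show such counts: 1 of 20 rose (Acaa2, 0.53 ± 0.08) and 0 fell. In the respiratory chain and citrate cycle 2 of 26 rose, Cox7a1 (0.55 ± 0.15) and Suclg1 (0.23 ± 0.06), and 2 fell, Dlat (-0.31 ± 0.08) and Idh3a (-0.24 ± 0.06). Branched chain amino acid breakdown fell in 6 of 18 and rose in 1, with Bckdhb (-0.49 ± 0.11), Bcat2 (-0.46 ± 0.13), Auh (-0.39 ± 0.08) and Pcca (-0.30 ± 0.06). Other probes of these genes did not pass: Auh read -0.04 and 0.04 (limma adjusted p = 0.858 and 0.885), Pcca -0.08 and -0.09 (0.690 and 0.598) and Bcat2 -0.14 (0.272). Further Suclg1 probes read 0.30 (0.0423) and -0.17 (0.407), and another Idh3a probe -0.18 (0.359). Bcat2 lost its call without any of 6 of the 18 arrays (highest limma adjusted p = 0.0594), and without the 1 month set 0 of the 18 and 0 of the 26 passed.

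Insulin signalling and glucose use fell in 7 of 22 and rose in 0. Akt2, the insulin-responsive kinase of fat, fell by 0.77 ± 0.14, Insr, the insulin receptor, by 0.39 ± 0.08, Ldhb by 0.32 ± 0.07 and Pdpk1, which activates AKT, by 0.28 ± 0.05. The glucose transporter Slc2a4 read 0.02, -0.14 and -0.67 by set and did not pass (limma adjusted p = 0.147). A second probe of Akt2 read -0.33 and did not pass (0.127); further probes of Insr read -0.44 and 0.02, the latter not passing (0.938). Without the 1 month set 0 of 22 passed.

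Secreted proteins moved both ways. Of 17 adipokine genes 6 fell and 3 rose: besides Retn, adiponectin (Adipoq) fell by 0.45 ± 0.07, the retinol carrier Rbp4 by 0.74 ± 0.17, and Fgf21 as above, while Fst, the activin-binding follistatin, rose by 0.88 ± 0.16 and Igf1 by 0.36 ± 0.05. Igf1 was even over the sets, with 2270, 2220 and 2320 against 3080, 2860 and 2710 on chow and 2010, 2100 and 1890 against 2490, 2590 and 2500 at 1 month. Leptin (Lep) read -0.03, -0.11 and -0.95 and did not pass on average (limma adjusted p = 0.0823). Among acute phase and major urinary proteins 8 of 17 fell and 1, Itih4, rose, with Orm1, a plasma carrier of small molecules, at -1.27 ± 0.27 and Orm2 at -0.99 ± 0.20. With the 1 month set left out 1 adipokine gene rose and 1 fell, and 1 acute phase or urinary protein gene rose and 4 fell.

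Among 16 textbook C/EBPα targets 8 fell and 0 rose, with a median of -0.32, and among 19 textbook PPARγ targets 8 fell and 1 rose, with a median of -0.24; several genes are in both lists. Pparg itself gave 7250, 7660 and 7220 against 6570, 6550 and 5790 on chow, 5470, 5280 and 6410 against 4030, 5160 and 3610 at 3 days, and 8210, 8430 and 9270 against 5920, 5310 and 6580 at 1 month of HFD. Knockout and control arrays did not overlap, and the averaged change was -0.40 ± 0.07 (limma adjusted p = 0.00219). Its other probes read -1.06 (limma adjusted p = 0.000199) and -0.32 (0.108). Pparg lost its call without the 1 month set (limma adjusted p = 0.117), and there 2 of the 16 and 1 of the 19 targets passed, with medians of -0.10 and -0.11. In 19 adipogenic transcription factors 4 fell, among them the deleted gene Cebpa, Pparg and Nr1h3 (the oxysterol receptor LXRα, -0.34 ± 0.08). The 3 that rose include Ebf2 at 0.28 ± 0.07, whose second probe read 0.27 and did not pass (limma adjusted p = 0.0779). Without the 1 month set 1 of the 19 fell and 0 rose. Cebpb and Cebpd read 0.00 and 0.12 and did not pass (limma adjusted p = 0.980 and 0.455).

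**Figure D5:**
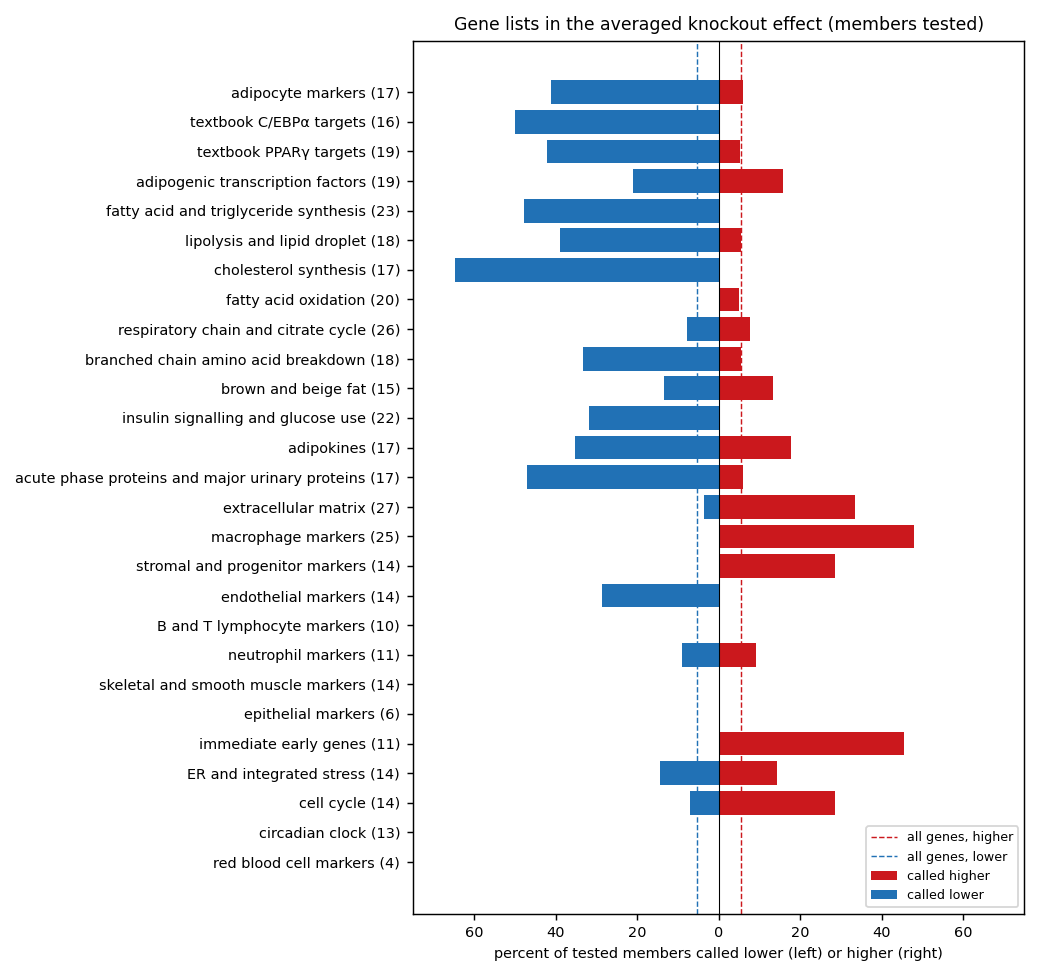
Percent of tested members called lower (left) or higher (right) on average for each of 27 gene lists, with the number tested in brackets; dashed lines mark all genes tested (5.31% lower, 5.60% higher). Cholesterol synthesis has 11 of 17 members lower and macrophage markers 12 of 25 higher.

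Markers of other cell types moved as well. Macrophage markers rose in 12 of 25 and fell in 0, with a median of 0.45 (0.18, 0.27 and 0.71 by set). Cd14, a receptor of bacterial lipopolysaccharide, gave 1110, 1020 and 1010 against 1290, 1430 and 1420 on chow and 567, 480 and 537 against 901, 1170 and 1050 at 1 month, a rise of 0.64 ± 0.08. The complement genes C1qb and C1qc rose by 0.47 ± 0.09 and 0.50 ± 0.10 and the Fc receptor gene Fcgr3 by 0.61 ± 0.13, while Adgre1, which encodes F4/80, did not pass (0.50 ± 0.17, limma adjusted p = 0.0573). Extracellular matrix genes rose in 9 of 27, with Col3a1 at 0.61 ± 0.14, Lum at 0.50 ± 0.08, Col6a2 at 0.42 ± 0.07 and Col6a1 at 0.34 ± 0.06, and fell in 1, the basement membrane collagen Col4a1 (-0.31 ± 0.09). Stromal markers rose in 4 of 14, with Pdgfra at 0.41 ± 0.09, Thy1 at 0.39 ± 0.09, Mfap5 at 0.34 ± 0.07 and Dpp4 at 0.27 ± 0.08. Endothelial markers fell in 4 of 14, with Cldn5 at -0.41 ± 0.12, Robo4 at -0.33 ± 0.08, Eng at -0.28 ± 0.07 and Flt1 at -0.27 ± 0.07. Second probes of Dpp4, Pdgfra, Flt1 and Col6a2 read -0.03, 0.21, -0.19 and 0.17 and did not pass, nor did 3 further Robo4 probes at -0.23 to 0.16. Dpp4 and Cldn5 lost their calls without any of 6 and 9 of the 18 arrays, taken out singly (highest limma adjusted p = 0.0586 and 0.0763). Without the 1 month set 1 macrophage, 2 matrix, 0 stromal and 0 endothelial members passed.

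The mean log2 level of the macrophage list, relative to each set's controls, ran from -0.07 to 0.10 in chow controls and 0.12 to 0.18 in chow knockouts, overlapped at 3 days of HFD (-0.32 to 0.18 against -0.01 to 0.49), and was -0.13 to 0.10 against 0.59 to 1.04 at 1 month. The 17 adipocyte markers, of which 7 fell and 1 rose, ran the other way, at -0.15 to -0.07, -0.33 to -0.18 and -0.78 to -0.55 in the knockouts of the 3 sets against -0.05 to 0.07 over all controls. Their summed signal in knockouts was 169000 to 185000 on chow, overlapping the controls at 181000 to 192000. It was 116000 to 127000 against 129000 to 132000 at 3 days and 119000 to 135000 against 165000 to 179000 at 1 month of HFD. Without the 1 month set 1 of the 17 adipocyte markers fell and 0 rose. In tissue RNA, fewer cells of a type and less RNA per cell cannot be told apart, and the part of these shifts in the results above was not tested.

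Lymphocyte, muscle, epithelial, red blood cell and circadian clock lists had 0 called members of 10, 14, 6, 4 and 13. The lymphocyte list stood apart in a single array, the third knockout at 3 days of HFD, with a mean log2 level of 1.42 against -0.19 to 0.30 in the other arrays of that set. Without that array 1445 genes were called, 1355 of them also with it, and all 24 genes of largest change kept their calls. Muscle markers were highest in the third control of each set, with 0.49 on chow, 1.29 at 3 days and 0.70 at 1 month of HFD against -0.77 to -0.10 in the other controls. Without those arrays, taken out singly, 1652, 1412 and 1249 genes were called. Immediate early genes rose in 5 of 11, with Fos at 0.93 ± 0.28, Egr1 at 0.84 ± 0.17, Junb at 0.65 ± 0.14 and Jun at 0.28 ± 0.07. The list mean of the third chow knockout was 0.90 against -0.12 and -0.08 in the other chow knockouts, with Fos at 2280 against 440 and 305; without that array Fos kept its call. A second Junb probe read -0.11 and did not pass (limma adjusted p = 0.568). Fos lost its call without any of 11 of the 18 arrays (highest limma adjusted p = 0.0758), and without the chow, 3 day and 1 month sets 5, 0 and 0 of the 11 passed. Among 14 cell cycle genes the replication helicase subunits Mcm2 and Mcm5 (0.33 ± 0.09 and 0.35 ± 0.09) and the mitotic kinase Aurkb (0.34 ± 0.10) were among the 4 that rose, and the inhibitor Cdkn1a was the 1 that fell (-0.44 ± 0.10). Without the 3 day HFD set or without the 1 month set 0 of the 14 rose. ER and integrated stress genes moved both ways, with Ddit3 (0.25 ± 0.06) and Pdia4 (0.19 ± 0.06) higher and Edem1 (-0.29 ± 0.08) and Xbp1 (-0.17 ± 0.05) lower. Second probes of Ddit3 and Edem1 read 0.12 and -0.06 and did not pass (limma adjusted p = 0.545 and 0.743). Of the 14 stress genes tested 0 passed without the 1 month set, as did 0 of 15 brown and beige fat genes. In brown and beige fat genes 2 of 15 rose, Cidea and Cox7a1 as above, and 2 fell, Prdm16 (-0.28 ± 0.05) and Ppargc1a (-0.23 ± 0.07); Ucp1 read 0.27 ± 0.19 and did not pass (limma adjusted p = 0.435). Xbp1, Ppargc1a, Aurkb, Pdia4 and Edem1 lost their calls without any of 13, 10, 9, 7 and 5 single arrays (highest limma adjusted p = 0.0558 to 0.0939).

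Both Cebpg and Chst8 lie close to Cebpa on chromosome 7, as the tested genes 1 and 3 on the same side. Of the 20 nearest tested genes, 10 on each side, these 2 rose and Kctd15, tested gene 4 on that side, fell by 0.75 ± 0.15 (-0.07, -0.72 and -1.45 by set). Over all genes tested 5.60% rose and 5.31% fell. Pepd, which lies between Cebpg and Chst8, read -0.17 ± 0.08 and did not pass (limma adjusted p = 0.195). Chromosome 7 as a whole held 8.23% of the fully separated called genes and 8.34% of the genes tested.

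Promoters were searched for the sequence that C/EBP dimers prefer, as TTGCGNAA on both strands, in RefSeq windows of 300 bases from 250 before to 50 after a start (build GRCm38.p6). Of the 25 genes named first (Cebpa, Pparg and the largest changes), 21 have 23 such windows, and 0 genes hold the motif. Its share was 0.757% of the promoters of called genes that fell in all 3 sets, 0.62% of those that rose, and 1.08% of the promoters of all genes tested. Among the fully separated called genes it was in 2 of 134 promoters of those that rose (1.49%), both windows of Dnajb6 over the same site. It was in 1 of 165 promoters of those that fell (0.606%), against the same 1.08% of all genes tested. The genes were Rpia, 45 bases before the start, and Dnajb6, 128 bases before the earlier of its 2 starts. These were picked for the motif and not by the rule for named genes. Rpia, which makes ribose phosphate, fell by 0.38 ± 0.08 (-0.27, -0.28 and -0.61 by set; limma adjusted p = 0.00338), and Dnajb6, a co-chaperone, rose by 0.24 ± 0.05 (0.26, 0.23 and 0.23; limma adjusted p = 0.00366). A looser motif, TTGCNNAA, which contains the first, was added after the first search; it was found in 9.29% of the promoters of all genes tested, 7.69% of those that fell and 10.9% of those that rose, and among the 25 genes in Pparg only, 215 and 16 bases before the third of its starts. The 3 promoters are shown with the motif in capitals, since they bracket what the search found; a match is a description of letters and not a binding site.
Pparg, chr6:115421816-115422115, plus strand: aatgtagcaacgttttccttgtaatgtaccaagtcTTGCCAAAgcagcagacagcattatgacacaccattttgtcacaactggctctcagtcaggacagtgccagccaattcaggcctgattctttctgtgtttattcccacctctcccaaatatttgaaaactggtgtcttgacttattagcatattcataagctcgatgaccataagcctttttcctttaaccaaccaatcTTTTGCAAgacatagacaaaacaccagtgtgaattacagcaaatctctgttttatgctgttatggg
Rpia, chr6:70792126-70792425, minus strand: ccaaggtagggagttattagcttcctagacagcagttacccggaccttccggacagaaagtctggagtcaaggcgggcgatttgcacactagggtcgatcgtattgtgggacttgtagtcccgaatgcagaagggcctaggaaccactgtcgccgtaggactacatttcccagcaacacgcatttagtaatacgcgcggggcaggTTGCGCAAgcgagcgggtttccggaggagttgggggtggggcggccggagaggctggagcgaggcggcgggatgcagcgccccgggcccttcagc
Dnajb6, chr5:29735648-29735947, plus strand: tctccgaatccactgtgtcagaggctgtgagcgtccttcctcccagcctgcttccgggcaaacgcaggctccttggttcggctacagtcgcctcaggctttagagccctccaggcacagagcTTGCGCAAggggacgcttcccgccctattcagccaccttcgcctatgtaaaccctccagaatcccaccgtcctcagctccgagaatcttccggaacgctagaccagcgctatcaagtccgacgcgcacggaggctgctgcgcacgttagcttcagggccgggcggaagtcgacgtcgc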

How the data were processed

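RNA of subcutaneous fat was read on Illumina BeadChip arrays. The deposited table holds linear intensities of 45281 probes; from the values, the authors had quantile-normalized each set of 6 arrays separately (largest gaps between sorted intensities of arrays: 0.705, 0.189 and 0.173 units), with no background subtracted. The scanner software is not given in the sources used here. The median intensity was 151, 110 and 116 on chow, at 3 days and at 1 month of HFD against an estimated background of 130, 103 and 107, and Pearson's r within groups was 0.990 to 0.995. For arrays their number limits the precision. Another deposited table, of intensities before normalization, was not used: its 96 array columns could not be matched to samples.

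Background was estimated from the lower side of each set's intensity peak and subtracted by normexp in limma. Before log2 an offset of 16 was added, which understates changes of dim genes. Printed signals are the corrected intensities without the offset. Probes above background (5% false positives) in at least 3 of 18 arrays were kept (32059), and the brightest probe of each of 15187 genes was tested. Platform symbols (34885 probes with 1 gene, 18 with several, 10378 unnamed) were updated through Entrez identifiers for 34807 probes; RefSeq assembly GRCm38.p6 gave names, gene order and promoters.

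The averaged effect was fitted with limma 3.58.1 in R 4.3.3 (lmFit with set as a block, eBayes, two-sided, Benjamini-Hochberg). Set effects and their difference came from a fit of 6 group means. The averaged effect and the interaction test were tried on simulated data, and the set effects and the alternative fits were not. Groups came from the titles. The members and lists were chosen with earlier results of these data known. Named genes were Cebpa and Pparg, the 12 largest changes in each direction among called genes separated in every set, the 5 smallest adjusted p in each direction among genes called only on average, the 4 largest with 1 set opposite, the 3 most even in each direction (averaged change at least 0.5), and the up to 4 called members per list with the smallest adjusted p; a few other members are named with their values, after these were seen. Alternatives covered background, offset, filter, probe choice, weights, normalization, threshold, replicate block and leaving out arrays or sets. The 27 lists held 453 genes, 390 of them tested.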

Additional observations from a re-analysis of the deposited data

Results flagged for a closer look

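The knockout effect of 33 of the 108 named genes differed among the sets in the interaction test (limma F, adjusted over all 15187 genes), against 523 of all genes (3.44%). The named genes were picked for large changes, and 4 of them for a set of opposite sign, so the counts are not comparable as a test. In all 33 the effect was largest at 1 month of HFD, and in 32 it was smallest on chow. The exception was Auh, smallest at 3 days of HFD (-0.196 against -0.204 on chow). Duration and age differ together between the HFD sets, diet differs between the 3 day sets, and each set had its own normalization. The Cebpa signal left also differed among the sets, and its part was not tested.

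The smallest adjusted p-values belonged to Apcdd1 (1.31e-05), Cebpa (2.46e-05), Angpt4 (0.000101), Slc13a4 (0.000146), Tenm4 (0.00021), Timp4 and Nos3 (0.000742 each), Acvr1c (0.000766) and Fst (0.000769). Acvr1c, an activin receptor of adipocytes, read -0.11, -1.07 and -1.63 by set, and Fst, which binds activin, read 0.27, 0.64 and 1.74. Itih4, Thbs2, Ffar4, Bscl2 and Akt2 had 0.00107 each, Retn 0.00111, Gnai1 0.00122, Bcat2 0.00204, Cyp2f2 0.00234 and Pla2g2e 0.00326.

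Further genes were H1f10 (0.00613), Sox9 (0.0064), Auh (0.0132), Mogat2 (0.0139), Abhd5 (0.0152), Mgll (0.0164), Hp (0.0171), Acss2 (0.0181), C1qc (0.0254), Pmvk (0.0278), Cidea (0.0326), the peroxisome gene Pex11a (0.0348), Dgat1 (0.0356) and Comp (0.0385).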

How the results depend on the processing

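No named gene changed sign under any alternative. The counts of 850 higher, 807 lower, 1567 with the same direction and 316 fully separated stayed within 1.5 times under 8 of 16 alternatives and on leaving out any 1 array. Testing every probe gave 1245 lower and 479 separated. The fit of 8 groups over 24 arrays gave 1302 higher. Adjusted p under 0.01 left 320 higher, 389 lower and 707 with the same direction, and a 2-fold minimum left 8, 46 and 54, with 23 separated. Without chow, 1129 were separated over both remaining sets. Without the 3 day HFD set the counts were 400, 365, 765 and 482, and without the 1 month set 81, 97, 178 and 162; these use fewer arrays and ask for separation in 2 sets. The replicate block gave 495, 504 and 990: same-numbered arrays correlated at -0.25 to 0.06, 0 of 9 pairs over 0.1, so the numbers do not pair the arrays, and the cause was not tested. Leaving out 1 array gave 611 to 965 higher, 617 to 862 lower, 1203 to 1703 with the same direction and 316 to 433 separated. Of the 108 named genes 65 lost their call without the 1 month set, 33 without the 3 day HFD set and 5 without chow. Dim genes near background, such as Cpne9, Angpt4, Tshr and Retn, have compressed changes.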
